A study of Mus musculus with 32 samples.

Results

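Nucleolar ribosome biogenesis genes encode the proteins that make ribosomal RNA and assemble it into ribosomal subunits. Of 42 listed mouse gene symbols, 39 were measured, each by 1 row of the array, among 19505 symbols in all. Nop56, Ebna1bp2 and Gnl3 had no row under those symbols. The list was drawn up from gene names with results of these arrays known, and its rule names no comparison. The rule also took the row with the highest mean level over the 32 arrays, a choice that decided nothing because every measured gene had 1 row. The counts below therefore describe this list and are not independent evidence that it moved.

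Ribosomes are built in the nucleolus. RNA polymerase I transcribes a long precursor RNA, small nucleolar ribonucleoproteins (snoRNPs) modify its nucleotides, the small subunit processome folds and cuts its 5′ part into the future 40S subunit, and a second set of assembly factors builds the 60S subunit. Cells that grow and divide need more ribosomes, and in skin such cells lie in the basal epidermis, in growing hair follicles and among immune cells that respond to inflammation. The transcription factor Myc is a known regulator of many of these genes.

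The samples came from mice of the NC/Nga strain, an inbred strain prone to dermatitis, kept free of specific pathogens. The groups were sham back skin, HDM back skin, sham ear and HDM ear, with 8 mice in each. The series title names HDM as the inducer of the dermatitis. The protocol text, attached to every sample, speaks of HDM-treated mice and does not say what the sham mice received; dose, duration, age and sex are not stated there. Dorsal back skin and ear were sampled by 8 mm punch. The tissue lay in RNAlater for 18 hours or more, and each sample's Clariom D array received 100 ng of RNA. The mice are numbered 1 to 8 within each group, and the labels do not say whether an ear and a back sample with the same number came from 1 animal. The values are log2 levels made by the authors with RMA, so 1 unit is a 2-fold change, and a level can be compared between arrays for a gene but not between genes. In whole skin, more cells that express a gene and more RNA per cell cannot be told apart.

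Keratinocyte and fibroblast markers, the defining markers of skin, were present: of 15 and 12 measured, 0 lay below the array background on all arrays of a group. The background is the median of the negative control probes of an array. It ran from 4.43 to 5.38 over the 32 arrays, and 37 of the 39 nucleolar genes were above it on every array. The exceptions were Bop1 with 1 value and Grwd1 with 2 values below it. Sham back mice 1 and 2 had the lowest hair follicle means, 7.00 and 10.8 against 11.9 to 15.2 in the other 6 sham backs. The hair follicle mean of mouse 2 lay close to that range. Both mice stood apart in neutrophil markers, with means of 7.84 and 8.07 against 5.27 to 6.42. Sham back mouse 7 had the lowest mean over the 39 genes in its group, 9.39, and 3 of its 39 values lay above the group mean. The same mouse had the lowest cell cycle mean of the sham backs, 8.33, and the highest skeletal muscle mean, 15.2.

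In HDM ears the nucleolar genes were broadly higher than in sham ears. The test on all 22206 rows was limma with Benjamini-Hochberg adjustment, called at an adjusted p under 0.05. It called 31 of the 39 genes higher and 0 lower, 79.5% of the list. Of all rows, 16.4% were called higher and 15.5% lower. At an unadjusted p under 0.05, 32 of the 39 were higher and 0 lower, but the share of all rows at that threshold was not counted. The median difference over the 39 genes was 0.89 on the log2 scale, against -0.02 over all rows. In 15 of them the level at least doubled, a size reached upwards by 7.61% of all rows. All 8 HDM ears lay above all 8 sham ears in 18 of the 39 genes, while 4.99% of all rows were separated in that direction; 0 were separated downwards, against 2.66% of all rows. In back skin 5 genes were called higher and 0 lower, 12.8% of the list, where 6.18% of all rows were called higher and 8.56% lower. There the median difference of the 39 genes was 0.21.

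**Figure D1:**
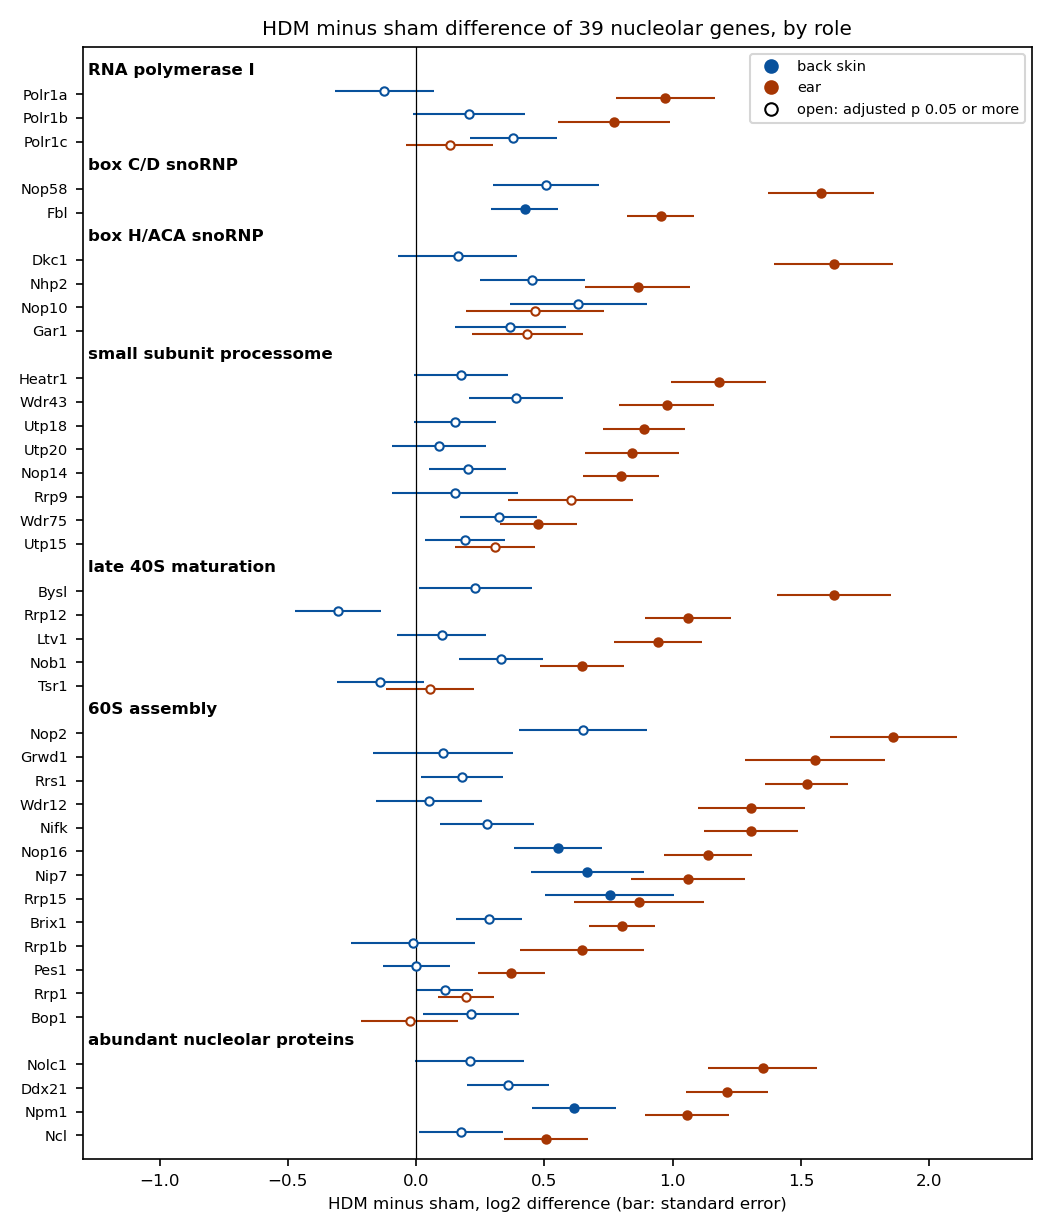
Difference between HDM and sham on the log2 scale (horizontal axis) for each of the 39 nucleolar genes (vertical axis, grouped by role), in back skin (blue) and ear (brown), with the standard error as a bar and 8 mice per group. Filled points passed an adjusted p of 0.05: 31 in ear and 5 in back skin, and Nop2 in ear has the largest difference, 1.86.

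RNA polymerase I opens the pathway, and 2 of its 3 listed subunits rose in HDM ears. Polr1a encodes the largest catalytic subunit. Its level in sham ears ran from 8.17 to 9.88 with a median of 9.60, and in HDM ears from 9.99 to 10.98 with a median of 10.21. No HDM ear overlapped a sham ear. The difference was 0.97 ± 0.19 (SE, n = 8 and 8), an increase of 1.96-fold with an adjusted p of 0.000199. Polr1b, the second largest subunit, rose by 0.77 ± 0.22 with 7 of 8 HDM ears above the sham mean. Polr1c, a subunit shared with RNA polymerase III, had a difference of 0.13 ± 0.17 that did not pass (adjusted p = 0.623).

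Both measured proteins of the box C/D snoRNP, a particle that methylates ribosomal RNA, rose in HDM ears. Nop58 is a core scaffold of that particle. Sham ears held Nop58 levels of 10.15 to 11.51 (median 10.76) and HDM ears 11.64 to 12.89 (median 12.60), without overlap. This was a rise of 1.58 ± 0.21, or 2.98-fold, at an adjusted p of 7.15e-07. Fbl, the methyltransferase fibrillarin, rose by 0.95 ± 0.13 with an adjusted p of 1.32e-06, again without overlap.

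The box H/ACA snoRNP converts uridine to pseudouridine, and 2 of its 4 proteins rose. Dkc1 encodes dyskerin, the pseudouridine synthase. Its level in sham ears lay between 6.42 and 8.11 (median 7.45), and in HDM ears between 8.66 and 9.50 (median 8.97). All HDM ears were above all sham ears, by a mean of 1.63 ± 0.23 or 3.09-fold (adjusted p = 2.14e-06). Nhp2, a core protein of the particle, rose by 0.86 ± 0.21. The other core proteins, Nop10 and Gar1, had differences of 0.46 ± 0.27 and 0.43 ± 0.22 whose adjusted p values were 0.208 and 0.132. The 4 proteins of 1 particle thus had ear differences from 0.43 to 1.63.

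The small subunit processome contributed 8 genes, of which 6 rose in HDM ears. Heatr1, a large scaffold also known as UTP10, had sham ear levels from 8.78 to 10.07 (median 9.68) and HDM ear levels from 10.49 to 11.28 (median 10.71). The groups were fully apart, and the difference was 1.18 ± 0.18 (2.26-fold, adjusted p = 8.33e-06). Wdr43, Utp18, Utp20 and Nop14 rose by 0.98, 0.89, 0.84 and 0.80, and Wdr75 by 0.48. Rrp9, the U3 snoRNP protein, missed the threshold with a difference of 0.60 ± 0.24 (adjusted p = 0.0576), and Utp15 stood at 0.31 ± 0.16 (adjusted p = 0.14).

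Later 40S maturation was represented by 5 genes, and 4 of them rose. Bysl encodes bystin, which acts on the pre-40S particle. Its sham ear values spanned 7.27 to 9.04 (median 8.62) and its HDM ear values 9.63 to 10.45 (median 10.22), so every HDM ear was above every sham ear. The rise was 1.63 ± 0.22, a 3.09-fold change with an adjusted p of 1.13e-06. Rrp12, an export factor of pre-ribosomes, rose by 1.06 ± 0.17, and Ltv1, which is released from the pre-40S particle late, by 0.94 ± 0.17. Nob1, the nuclease that makes the last cut at the 3′ end of 18S ribosomal RNA, rose by 0.65 ± 0.16. Tsr1 had a difference of 0.05 ± 0.17, with 4 of 8 HDM ears above the sham mean.

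Assembly of the 60S subunit was the largest class, with 11 of 13 measured genes higher in HDM ears and a median difference of 1.06. Nop2, the methyltransferase also known as the proliferation antigen p120, had the largest difference of the 39 genes. Sham ears ranged from 7.67 to 9.78 with a median of 9.22, and HDM ears from 10.17 to 11.65 with a median of 10.99. The groups did not overlap, and the difference was 1.86 ± 0.25 (3.63-fold, adjusted p = 8.91e-07). Rrs1, which with Rpf2 brings the 5S particle into the pre-60S subunit, rose by 1.52 ± 0.16 with an adjusted p of 2.05e-08, the smallest in the list. The Pes1-Bop1-Wdr12 complex processes the precursor of 28S ribosomal RNA, and its members differed in size: Wdr12 rose by 1.31 ± 0.21, Pes1 by 0.37 ± 0.13 (adjusted p = 0.0283), and Bop1 had a difference of -0.03 ± 0.19 (adjusted p = 0.944). Their differences were not tested against each other. Bop1 also had the lowest mean level of the 39 genes, 5.67 in sham ears and 5.64 in HDM ears. These values lie near the array background of 4.43 to 5.38, though Bop1 was above it on 8 of 8 arrays in both ear groups. The part of the background in the Bop1 difference was not tested. The Pes1 call was lost without sham ear mouse 1 or 8, without HDM ear mouse 1 or 4, and when quantile normalization was repeated. Nifk, Nop16, Nip7, Rrp15 and Brix1, all pre-60S factors, rose by 1.30, 1.14, 1.06, 0.87 and 0.80. Rrp1b rose by 0.65 ± 0.24 (adjusted p = 0.0393), and its relative Rrp1 was not called, at 0.19 ± 0.11 (adjusted p = 0.188). The Rrp1b call was kept in 23 of the 32 fits that left out 1 array, and lost without sham ear mouse 2, 4, 5, 7 or 8 or HDM ear mouse 4, 5, 7 or 8. Grwd1, a histone-binding assembly factor, rose by 1.55 ± 0.27, and 6 of 8 sham ears were above background. With the values below background raised to it, the Grwd1 difference was 1.49.

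All 4 abundant nucleolar proteins rose in HDM ears. Nolc1, a chaperone of snoRNPs, ran from 7.22 to 8.74 in sham ears (median 8.23) and from 9.06 to 9.91 in HDM ears (median 9.43), without overlap. Its difference was 1.35 ± 0.21, or 2.55-fold, with an adjusted p of 9.16e-06. Ddx21, an RNA helicase, rose by 1.21 ± 0.16, and Npm1, nucleophosmin, by 1.06 ± 0.16. Ncl, nucleolin, rose by 0.51 ± 0.16 (adjusted p = 0.0163), a call that was lost when quantile normalization was repeated. Npm1 has many processed copies in the genome, and the files do not say how many of its probes are unique to it.

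**Figure D2:**
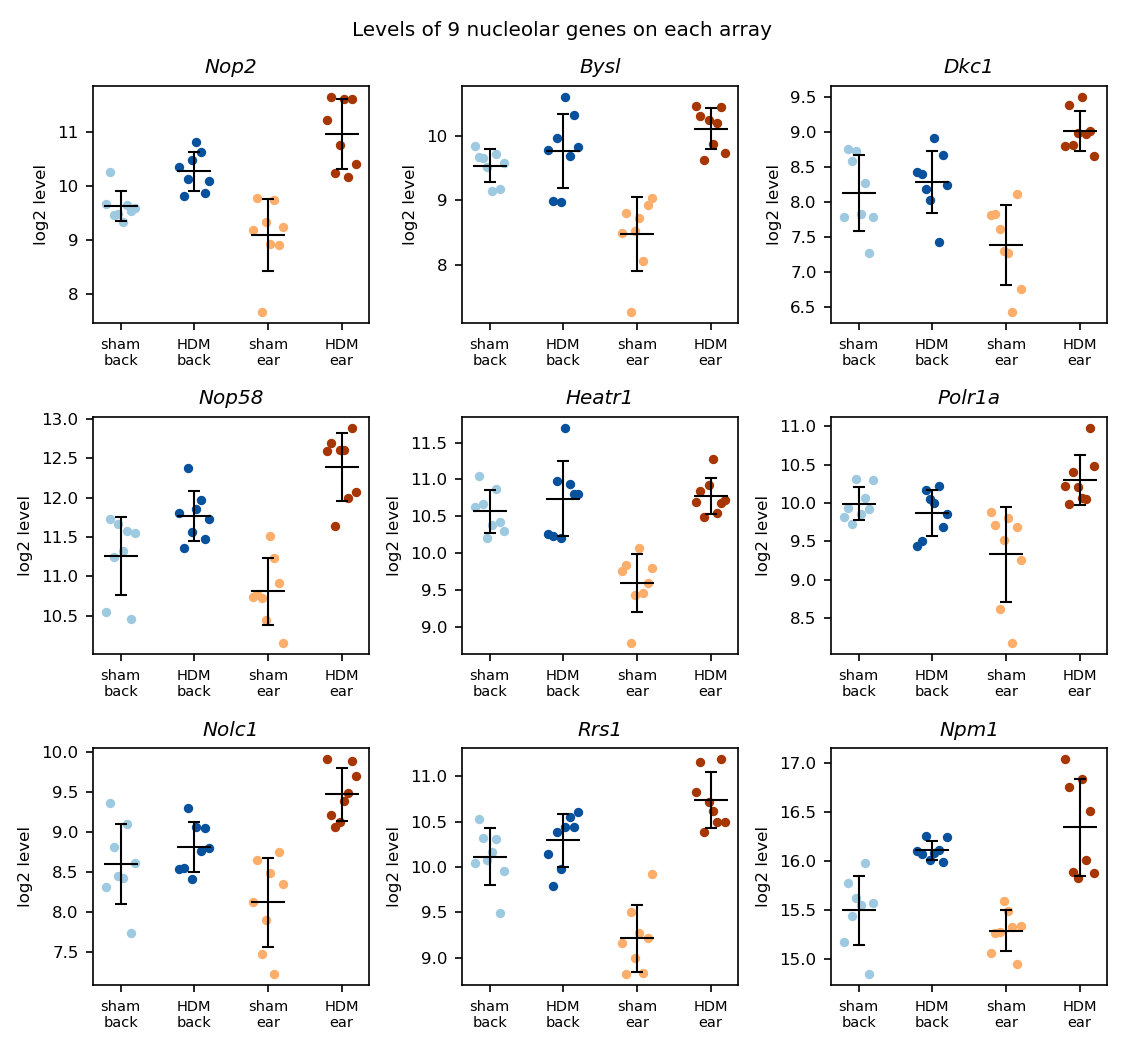
Log2 level (vertical axis) of 9 nucleolar genes on every array (points) in the 4 groups, with the mean and SD of 8 mice as black bars. In each of the 9 panels all HDM ears lie above all sham ears, while HDM and sham backs overlap in every panel but that of Npm1. The 9 genes were picked for their differences. Of all 39 genes 18 were separated upwards in ear, against 4.99% of all rows. Axis ranges differ between panels and do not start at 0.

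Cell cycle genes and several lists of cell type markers moved beside the ear result. In ear, 26 of 26 measured cell cycle genes rose, with a median of 1.66. The neutrophil list had 12 of 13 genes higher, the macrophage list 13 of 15 higher and 1 lower, and the T cell list 10 of 14 higher. All 18 skeletal muscle markers and all 12 adipocyte markers were lower. Keratinocyte markers went both ways, with 4 of 15 higher and 3 lower, as did fibroblast markers, with 2 of 12 higher and 3 lower. Of 20 hair follicle markers 0 were higher and 1 was lower. The mean level of the neutrophil list ran from 4.22 to 5.30 in sham ears, where 7 of its 13 genes were below background on all arrays, and from 8.44 to 14.0 in HDM ears. The macrophage list ran from 8.45 to 8.97 and from 9.95 to 12.4, the muscle list from 11.4 to 13.4 and from 8.28 to 10.7, and the adipocyte list from 9.002 to 9.46 and from 7.09 to 8.49. T cell markers ran from 5.15 to 5.54 and from 5.60 to 7.62. The negative control median lay between 5.09 and 5.38 in sham ears and between 4.61 and 4.98 in HDM ears. The part of these lists, and of the background, in the difference of the nucleolar genes was not tested.

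The HDM ears differed among themselves. Averaged over the 39 genes, mice 5 and 7 stood at 10.88 and 10.87, mice 2 and 1 at 10.78 and 10.75, mice 4, 8 and 6 at 10.50, 10.40 and 10.38, and mouse 3 at 10.17. All 8 were above the highest sham ear, 9.77, and the sham ears spanned 9.50 to 9.77. The SD of this mean was 0.26 in HDM ears, 0.23 in sham backs, 0.14 in HDM backs and 0.09 in sham ears. The 4 ears with the highest nucleolar mean also had the 4 highest means of the cell cycle list, 10.002 to 10.4 against 8.88 to 9.35 in the other 4. They likewise had the 4 highest neutrophil means, 12.9 to 14.0 against 8.44 to 10.03. The macrophage list split these ears in the same way, 11.7 to 12.4 against 9.95 to 10.8, as did the T cell list, 6.93 to 7.62 against 5.60 to 6.07. Their muscle means were the 4 lowest, 8.28 to 9.49 against 9.73 to 10.7. Their adipocyte means, 7.09 to 7.18 against 8.04 to 8.49, and their keratinocyte means, 15.97 to 16.15 against 16.58 to 16.77, were the 4 lowest too. The hair follicle and fibroblast means of the same ears overlapped. The part of these lists in the spread of the nucleolar genes among HDM ears was not tested. Within single genes, the median SD of the 39 genes was 0.33 in HDM ears and between 0.32 and 0.37 in the other groups.

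**Figure D3:**
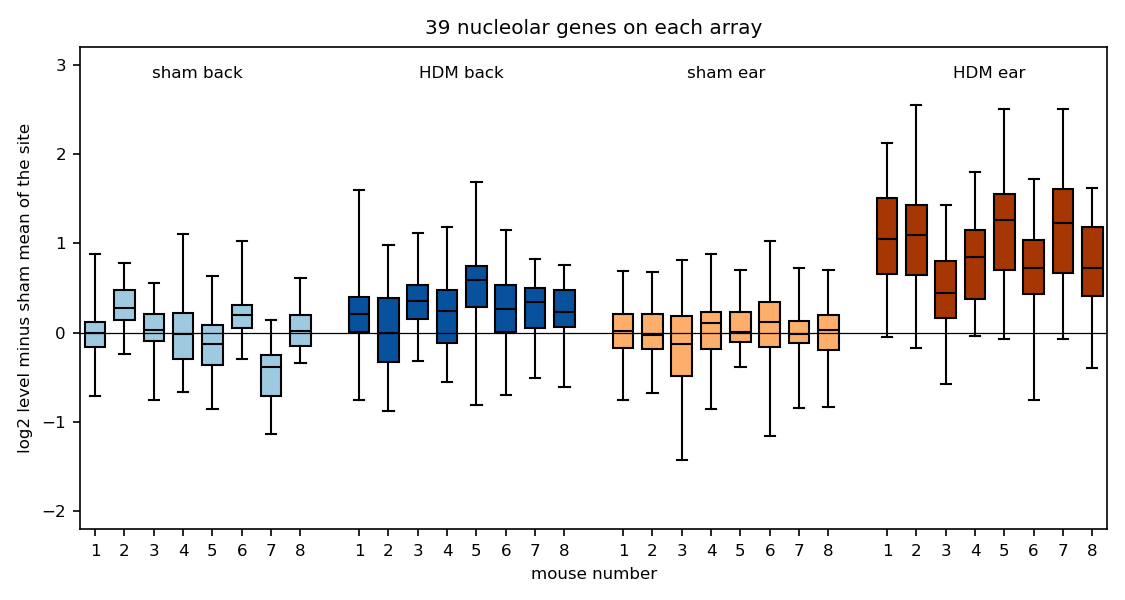
Log2 level minus the sham mean of the same site (vertical axis) of the 39 nucleolar genes on each array (horizontal axis, mouse number within group). Boxes hold the middle of the genes with the median as a line, and whiskers span all 39; the medians of HDM ears run from 0.44 in mouse 3 to 1.26 in mouse 5, and sham back mouse 7 has the lowest, -0.38.

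Promoter sequence was looked at because many of these genes moved together and because Myc with its partner Max binds the E-box CACGTG, which reads the same on both strands. RefSeq promoters of the mouse build GRCm38.p6, 250 bases before to 50 bases after the transcription start, were at hand for 34 of the 39 measured genes; Bop1, Fbl, Npm1, Rrp12 and Rrs1 had no entry. The 34 genes had 37 promoters, and a gene was counted if any of its promoters held a motif. The E-box stood in promoters of 8 of the 34 genes, 23.5%. It did so in 8.09% of 27025 genes and 11.4% of 9555 genes above array background. With only the 250 bases before the start, 2 of 34 held it, 5.88% against 6.86% of all genes and 9.72% of those above background, so 6 of the 8 sites lie just after the start. The ETS motif CCGGAAG, searched on both strands, stood in promoters of 13 genes, 38.2% against 9.93% of all genes and 19.1% of those above background. The YY1 motif AAGATGG, also on both strands, stood in promoters of 2 genes, 5.88% against 7.28% and 8.14%. These letters are a description, and no binding was measured.

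The stretches around the 8 E-boxes follow, 5′ to 3′ on the strand of the gene, with the E-box in capitals. For Nop2 and Utp18 the 250 bases before the start are shown because the E-box lies there. For the others up to 30 bases around the motif are shown. Both longer stretches also hold the ETS motif.
Nop2, chr6:125131633-125131882, plus strand: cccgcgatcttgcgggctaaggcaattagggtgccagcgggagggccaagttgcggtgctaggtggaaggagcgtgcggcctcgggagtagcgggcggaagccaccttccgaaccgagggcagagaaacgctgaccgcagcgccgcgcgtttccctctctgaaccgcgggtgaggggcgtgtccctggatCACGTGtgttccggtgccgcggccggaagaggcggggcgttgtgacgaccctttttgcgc
Utp18, chr11:93885767-93886016, minus strand: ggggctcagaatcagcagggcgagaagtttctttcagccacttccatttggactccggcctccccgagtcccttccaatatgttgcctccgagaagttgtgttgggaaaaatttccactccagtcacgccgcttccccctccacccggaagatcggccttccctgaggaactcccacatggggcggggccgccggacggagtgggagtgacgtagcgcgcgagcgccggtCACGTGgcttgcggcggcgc
Pes1, chr11:3963965-3963994, plus strand: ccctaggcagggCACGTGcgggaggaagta
Wdr43, chr17:71616220-71616249, plus strand: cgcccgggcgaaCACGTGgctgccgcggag
Tsr1, chr11:74898092-74898121, plus strand: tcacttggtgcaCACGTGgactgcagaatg
Ltv1, chr10:13193092-13193121, minus strand: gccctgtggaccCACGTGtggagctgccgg
Grwd1, chr7:45830740-45830767, minus strand: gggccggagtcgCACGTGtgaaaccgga
Utp20, chr10:88826765-88826789, minus strand: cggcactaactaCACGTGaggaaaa

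The ear differences of genes with and without the E-box covered much the same range. The median was 0.92 over the 8 genes with it, from 0.05 in Tsr1 to 1.86 in Nop2, and 0.83 over the 26 without it, from 0.13 to 1.63. Dkc1, Bysl and Nop58 had large differences in ear and no E-box in the window. Whether the classes differ was not tested.

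Of the MYC network itself, 4 of 12 genes rose and 4 fell in HDM ears. Myc rose by 0.74 ± 0.21, from a mean of 12.64 to 13.38 (adjusted p = 0.00673), and its partner Max by 0.57. Mxd1, a Max partner that acts against Myc, rose by 1.61 ± 0.28, and Mlx by 1.10. Mycl fell by 2.98 ± 0.48, Mga by 1.35, Mxd4 by 0.78 and Mxi1 by 0.58. In back skin the Myc difference was -0.05 ± 0.21 (adjusted p = 0.916), and 1 gene of the network passed, Mxd4, which fell by 0.84.

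In back skin the 5 nucleolar genes that rose were Rrp15, Nip7, Npm1, Nop16 and Fbl. At an unadjusted p under 0.05, 14 of the 39 were higher, but the share of all rows at that threshold was not counted. Rrp15, an early 60S factor, ran from 5.26 to 6.83 in sham backs (median 6.11) and from 5.93 to 7.70 in HDM backs (median 6.83). The groups overlapped, and the difference was 0.75 ± 0.25 (1.69-fold, adjusted p = 0.0396). Nip7, also a 60S factor, ran from 8.39 to 9.36 (median 8.71) and from 9.06 to 9.92 (median 9.36), a difference of 0.67 ± 0.22 (adjusted p = 0.0381) with overlap.

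Npm1 and Fbl were the genes whose back skin groups did not overlap, 2 of 39 where 1.83% of all rows were separated upwards and 2.33% downwards. Npm1 ran from 14.84 to 15.98 in sham backs (median 15.56) and from 15.99 to 16.25 in HDM backs (median 16.09), and rose by 0.61 ± 0.16 (adjusted p = 0.00954). Fbl ran from 12.21 to 12.97 (median 12.89) and from 12.99 to 13.39 (median 13.16), and rose by 0.42 ± 0.13 (adjusted p = 0.0251). In both genes the highest sham back and the lowest HDM back nearly touched. Nop16, a 60S factor, ran from 10.02 to 11.15 (median 10.62) and from 10.89 to 11.32 (median 11.12), with overlap, and rose by 0.55 ± 0.17 (adjusted p = 0.0262). The other 34 genes had differences from -0.30 in Rrp12 to 0.65 in Nop2, none of them called.

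The back skin calls rest on few arrays. Without sham back mouse 7, or without sham back mouse 8, 1 gene was called higher in place of 5, and Npm1 was the only one of the 5 called under every setting tried. Of the 32 fits that left out 1 array, Fbl was called in 29, Nop16 in 28, Nip7 in 24 and Rrp15 in 23. Without sham back mouse 5 the count was 3, without HDM back mouse 1 it was 2 and without HDM back mouse 5 it was 3. Making the medians of all arrays equal moved the median of all rows in this comparison by 0.125 and gave 10 nucleolar genes higher. The share of all rows called higher also went up, from 6.18% to 11%. Among called rows alone, the share that were higher went from 41.9% to 63.6%. Beside the back skin result, 13 of 26 cell cycle genes and 11 of 13 neutrophil markers rose and 9 of 12 adipocyte markers fell. The cell cycle list ran from 8.33 to 9.42 in sham backs and from 9.40 to 10.02 in HDM backs, the neutrophil list from 5.27 to 8.07 and from 9.92 to 11.2, and the adipocyte list from 10.6 to 11.7 and from 9.36 to 10.3. Their part was not tested.

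The HDM difference was larger in ear than in back skin for 15 of the 39 genes by the test of that difference in the same fit, and smaller for 0, which is 38.5% of the list where 6.77% of all rows were called larger and 3.37% smaller. Among those 15, Polr1a, Dkc1, Heatr1, Bysl, Rrs1, Wdr12, Nifk and Grwd1 were also called lower in sham ear than in sham back skin. The other genes of the 15 were not, and both tests use the same sham arrays. The median of the difference between sites was 0.58 over the 39 genes. Dkc1 had the largest, 1.47 ± 0.33 (adjusted p = 0.00368): its back skin levels ran from 7.26 to 8.76 in sham (median 8.05) and from 7.43 to 8.91 in HDM (median 8.32), so the groups overlapped. Grwd1 followed at 1.45 ± 0.39 (adjusted p = 0.0136), with sham backs from 5.85 to 6.73 (median 6.21) and HDM backs from 5.70 to 7.88 (median 6.05). In HDM ears Grwd1 ran from 5.91 to 7.70 (median 7.20), and in sham ears from 4.73 to 6.14 (median 5.60), with overlap.

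Bysl differed between sites by 1.40 ± 0.31 (adjusted p = 0.00369), with a back skin difference of 0.23 ± 0.22. Rrp12 differed by 1.36 ± 0.24 (adjusted p = 0.000378) and its back skin difference was -0.30 ± 0.17, not called. Its sham backs ran from 7.76 to 8.62 (median 8.30), its HDM backs from 7.44 to 8.74 (median 7.79), its sham ears from 7.54 to 8.68 (median 8.14) and its HDM ears from 8.77 to 9.37 (median 9.12). HDM and sham were apart in ear and overlapped in back skin. The genes called in back skin were not among the 15: the difference between sites was 0.12 ± 0.36 for Rrp15, 0.39 ± 0.31 for Nip7, 0.44 ± 0.23 for Npm1, 0.58 ± 0.24 for Nop16 and 0.53 ± 0.18 for Fbl (adjusted p from 0.0629 to 0.887). Without sham back mice 1 and 2 the count was 13, and the calls of Nop2 and Utp18 were lost. With array medians made equal it was also 13, where 4.98% of all rows were called larger in ear. Calls in favour of the ear then went from 66.8% to 45.8% of the called rows of the whole table. The Utp18 call was kept in 24 of the 32 fits that left out 1 array.

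**Figure D4:**
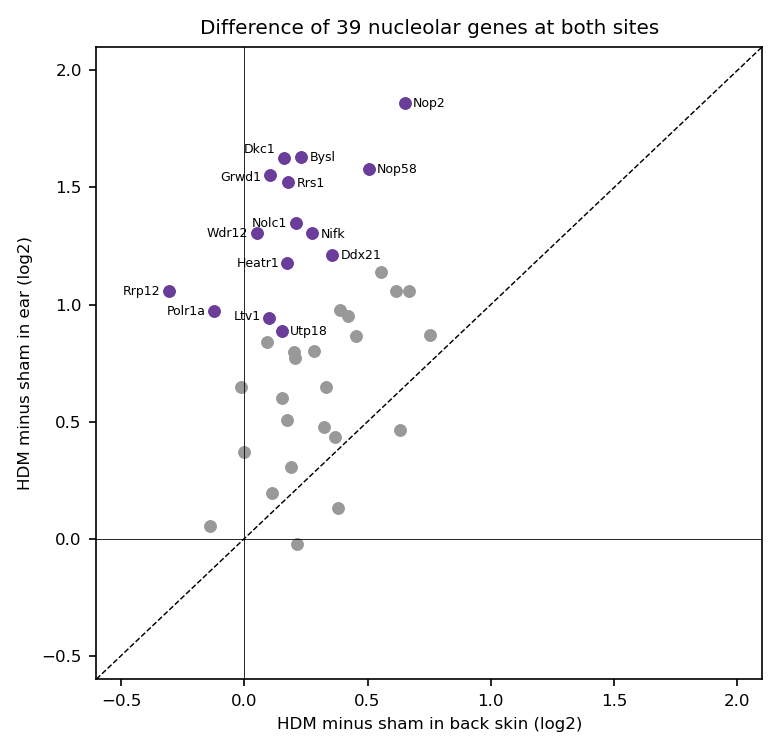
HDM minus sham difference in ear (vertical axis, log2) against that in back skin (horizontal axis, log2) for the 39 nucleolar genes; the dashed line marks equal differences. Purple named points are the 15 genes whose differences at the sites were called different at an adjusted p under 0.05, and all 15 lie above the line.

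Sham skin of the sites also differed. In sham ear 9 of the 39 genes were lower than in sham back skin and 3 were higher, where 14.1% of all rows were lower and 15.6% higher. Bysl was lower by a log2 difference of -1.06 ± 0.22 (adjusted p = 0.000338): sham backs ran from 9.14 to 9.84 (median 9.62), above every sham ear. Heatr1 differed by -0.97 ± 0.18 (adjusted p = 0.000103), with sham backs from 10.21 to 11.05 (median 10.53), also above every sham ear. Wdr12 completed the genes without overlap, 3 in all against 4.14% of all rows (0 were separated upwards, against 4.4%): its sham ears ran from 8.28 to 8.76 (median 8.57) and its sham backs from 8.97 to 10.11 (median 9.48), a difference of -0.96 ± 0.21. Rrs1 ran from 8.82 to 9.92 in sham ears (median 9.19) and from 9.49 to 10.53 in sham backs (median 10.12), a difference of -0.90 ± 0.16 (adjusted p = 5.04e-05) with overlap.

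Dkc1, Grwd1, Polr1a, Nifk and Nop16 were the other lower genes, with differences of -0.74, -0.71, -0.66, -0.51 and -0.45. The 3 higher genes in sham ear were Gar1, Ncl and Nop14. Gar1 ran from 8.02 to 9.27 in sham ears (median 8.46) and from 6.95 to 8.68 in sham backs (median 7.79), a difference of 0.78 ± 0.22 (adjusted p = 0.00596). Ncl ran from 14.25 to 14.75 (median 14.52) and from 12.98 to 14.71 (median 13.90), a difference of 0.55 ± 0.16. Nop14 ran from 8.85 to 9.30 (median 9.05) and from 8.19 to 9.12 (median 8.68), and its difference of 0.38 ± 0.15 lay at the threshold (adjusted p = 0.04997). All 3 overlapped. The Nop14 call was kept in 8 of the 32 fits that left out 1 array, that of Nop16 in 12, that of Grwd1 in 22 and that of Nifk in 26.

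The genes lower in sham ear include several with a large HDM difference in ear, and both comparisons use the same sham ears. All of the lower genes but Nop16 were also called for a larger HDM difference in ear than in back skin. Bysl means were 9.54 in sham back, 9.77 in HDM back, 8.48 in sham ear and 10.11 in HDM ear. Heatr1 means in that order were 10.57, 10.74, 9.59 and 10.77. Wdr12 means were 9.50, 9.55, 8.54 and 9.85. In each of these genes the sham ears had the lowest mean of the 4 groups and the HDM ears the highest. Beside this comparison, all 20 hair follicle markers and 18 of 26 cell cycle genes were lower in sham ear and 0 of either list was higher. Adipocyte markers were lower in 10 of 12 and higher in 1. Macrophage markers were lower in 6 of 15 and neutrophil markers in 5 of 13, with 0 higher. The keratinocyte, fibroblast, skeletal muscle and T cell lists had genes called in both directions. The hair follicle list ran from 4.73 to 6.79 in sham ears, with 5 of 20 genes below background on all arrays, and from 7.00 to 15.2 in sham backs. The cell cycle list ran from 7.59 to 8.22 and from 8.33 to 9.42. The part of all these lists in the difference between sham sites was not tested. Without sham back mouse 7 the number of lower nucleolar genes was 12, and without sham back mice 1 and 2 it was 6. With array medians made equal, 5 were higher and 6 lower, where 22.8% of all rows were higher and 11.1% lower. Among called rows alone, 67.3% were then higher in sham ear in place of 52.6%.

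Many other genes of the pathway also rose in HDM ears. From 6 further lists (159 genes, 152 measured), 79 genes rose and 4 fell in HDM ears, 52.0% higher with a median of 0.48, where 16.4% of all rows were higher. In back skin 12 rose and 0 fell, 7.89% with a median of 0.16, a share near the 6.18% of all rows called higher there. Among exosome subunits and nucleases that trim ribosomal RNA, 18 of 21 rose in ear, led by Pop1, a subunit of the RNase P and MRP ribonucleases, at 1.16 ± 0.22 and the exosome subunit Exosc9 at 1.12 ± 0.17. The other small subunit processome genes had 22 of 41 higher and 0 lower, with Noc4l at 1.58 ± 0.24 and Utp4 at 1.43 ± 0.22. The other 60S assembly genes had 24 of 49 higher and 3 lower, with Urb2 at 1.51 ± 0.26 and Eif6, which keeps the immature 60S subunit from joining, at 1.34 ± 0.18. Nop53, Gnl3l and Nvl fell by 0.99, 0.75 and 0.44.

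Late 40S maturation had 5 of 11 further genes higher, with Pno1, a partner of Nob1, at 1.88 ± 0.22 and Lyar at 1.67 ± 0.24. Of 12 further snoRNP proteins and assembly factors 5 rose, among them Ruvbl2, an ATPase of the R2TP assembly complex, at 1.36 ± 0.21 and Snu13 at 0.96 ± 0.17. Of 18 further genes of the RNA polymerase I machinery, 5 rose and 1 fell: Polr1e rose by 1.41 ± 0.20 and Tcof1, the treacle protein, by 1.13 ± 0.25, and Taf1b, a subunit of the selectivity factor, fell by 0.58. In back skin the same lists had 2 genes higher each. They included Eif6 at 1.08 ± 0.18, Ruvbl2 at 0.91 ± 0.21, Rpp38 at 0.83 ± 0.17, Tsr3 at 0.70 ± 0.21, Utp11 at 0.69 ± 0.20 and Polr1d at 0.67 ± 0.23.

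The ribosomal proteins are the parts that these factors assemble. Of 56 measured cytosolic ribosomal protein genes, 26 rose and 0 fell in back skin, with a median of 0.38. In ear 4 rose (Rpl6, Rpl15, Rpl29 and Rps13) and 4 fell (Rps20, Rps15, Rps24 and Rpsa), with a median of 0.02. The difference between sites was called for 11 of them, all smaller in ear. In sham ear 44 of the 56 were higher than in sham back skin and 0 lower, with a median of 0.68. Ribosomal protein genes have many processed copies in the genome, and the files do not say how many of their probes are unique.

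**Figure D5:**
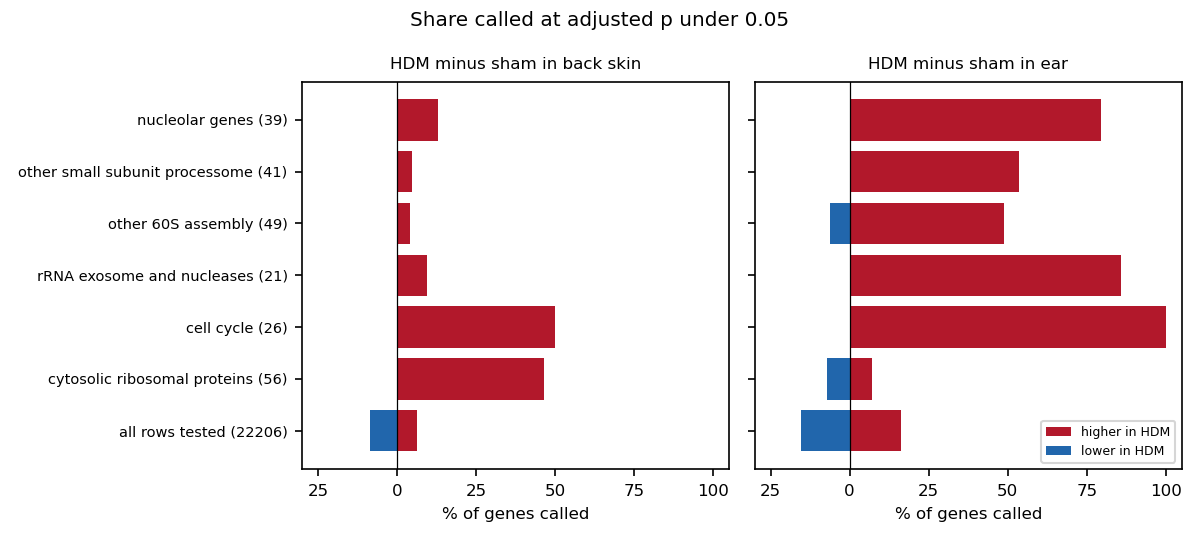
Share of genes called higher (red, to the right) or lower (blue, to the left) in HDM at an adjusted p under 0.05, in back skin and ear, for the nucleolar genes, 3 further pathway lists, cell cycle genes, cytosolic ribosomal proteins and all rows tested; the number measured stands in brackets. In ear 79.5% of the nucleolar genes and 16.4% of all rows were higher, and in back skin 12.8% and 6.18%. Further lists not drawn had smaller shares higher in ear than the 3 drawn. They were RNA polymerase I machinery (5 of 18), box C/D and H/ACA assembly (5 of 12) and late 40S maturation (5 of 11).

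The gene whose profile was closest to the nucleolar genes was Srm, spermidine synthase. Its Pearson correlation with the mean of the 37 genes above background in every group was 0.957 over the 32 arrays, and 0.836 over deviations from the 4 group means. Of 19466 other symbols ranked, the next were Wfdc17 at 0.940 (0.777), Pno1 at 0.924 (0.680), Slc25a5 at 0.917 (0.699), Timm8a1 at 0.913 (0.582), Eif5a at 0.913 (0.739), Prmt1 at 0.911 (0.629), Has3 at 0.907 (0.799), H2az1 at 0.906 (0.669) and Ccl12 at 0.906 (0.536), with the value over deviations in brackets. Srm differed by 2.07 in ear and 0.60 in back skin, and Eif5a by 1.41 and 0.65. The 32 arrays mix sham with HDM and ear with back skin, so a correlation over them also holds differences between groups. The correlations are given as a description.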

How the data were processed

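Per the submitters' processing notes, the authors made the deposited log2 values with RMA in the Transcriptome Analysis Console; versions and genome build: not given in the sources used here. The values ran from 1.71 to 19.93, wide for RMA, and whether they were rescaled is unknown. Of 28846 rows, 6640 control rows were left out (5222 negative controls set the background) and 22206 were tested; 19572 had 1 symbol in the platform annotation, which can be old. limma 3.58.1 in R 4.3.3 fitted the 4 groups over all 32 arrays without a block (lmFit, eBayes, two-sided, Benjamini-Hochberg over all rows, threshold 0.05), and was tested on simulated data. The number of arrays limits the precision. The members, roles and gene lists were chosen with earlier results of these data known. Levels per mouse are given for the 4 called genes with the largest positive and the 4 with the largest negative difference in each comparison, and for the gene of each of 7 roles with the largest ear difference; Fbl was added after its values were seen. From each further list the 2 called genes with the largest absolute difference in ear and in back skin, and Myc, are named, as are the 10 symbols most correlated; genes that fell, other MYC network genes and the 8 ribosomal protein genes were named after their values were seen. Alternatives were filtering dim rows, equal medians, repeated quantile normalization, a trended robust prior, group weights, fits on 16 arrays, leaving out sham back mice 1 and 2, blocks by mouse number, and leaving out each array. Mouse numbers did not pair the samples by their correlations.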

Additional observations from a re-analysis of the deposited data

Results flagged for a closer look

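In 156 groups of 8 values (39 genes in 4 groups), 7 held a value far from the other 7 by Dixon's criterion; chance gives about 1 in 20, or 7.8. Sham back mouse 7 was low in Nhp2 (10.35), Rrp9 (6.21) and Tsr1 (10.10). Sham ear mouse 3 was low in Nop2 (7.67) and Rrp1 (11.94). Sham back mouse 2 was high in Nop2 (10.26), and HDM ear mouse 6 was high in Tsr1 (11.03).

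In 15 genes the HDM difference was larger in ear than in back skin by the limma test of that difference at an adjusted p under 0.05. Of these, Dkc1, Grwd1, Bysl, Rrs1, Wdr12, Polr1a, Nifk and Heatr1 were also called lower in sham ear than in sham back skin. The log2 difference between sites was 1.47 in Dkc1, 1.45 in Grwd1, 1.40 in Bysl, 1.36 in Rrp12, 1.34 in Rrs1, 1.26 in Wdr12, 1.21 in Nop2, 1.14 in Nolc1, 1.10 in Polr1a, 1.07 in Nop58, 1.03 in Nifk, 1.00 in Heatr1, 0.85 in Ddx21, 0.84 in Ltv1 and 0.74 in Utp18.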

How the results depend on the processing

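Leaving out 1 array at a time, nucleolar genes called higher numbered 1 to 6 in back skin, 29 to 32 in ear and 14 to 19 for the difference between sites; 2 to 3 were higher and 6 to 12 lower in sham ear against sham back, and 0 were lower in back skin, ear or the difference between sites. With array medians made equal, 10 were higher in back skin, where 11% of all rows were higher, and 5 in sham ear, where 22.8% were. With quantile normalization repeated, 5 were higher in sham ear, where 17.8% of all rows were higher. Equal medians moved the median of all rows by 0.125 in back skin, -0.12 for the difference between sites and 0.12 in sham ear against back. The cause was not tested. Over all settings 1 of 5 back skin calls, 28 of 31 ear calls (not Pes1, Rrp1b and Ncl), 12 of 15 calls between sites (not Utp18, Ltv1 and Nop2) and 8 of 12 calls between sham sites remained, and no call changed direction. With the mouse number as a fixed replicate block the counts were 4, 32, 14, and 2 higher with 8 lower; as a random replicate block 5, 31, 15, and 3 with 9. Same-numbered ear and back samples correlated from -0.152 to 0.0559 in sham (1 of 8 best with its own number) and from -0.121 to 0.168 in HDM (0 of 8). In promoters, 250 bases before the start alone gave 2 genes with the E-box, 11 with the ETS motif and 1 with the YY1 motif, a shorter window. The alternative row per symbol gave no other value, since each gene had 1 row.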
